A study of Mus musculus with 8 samples.

Results

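The genes described here make the machinery of oxidative phosphorylation, which is encoded partly in the nucleus and partly in the mitochondrial genome. They are the rows of the deposited table whose symbol begins with mt-, Nduf, Uqcr, Atp5 or Cox4 to Cox8, together with Sdha, Sdhb, Sdhc, Sdhd, Cyc1 and Cycs. The rule used names only and no measured value, and it found 131 of the 24942 genes listed. Of these, 37 lie in the mitochondrial genome (13 mRNA, 2 rRNA and 22 tRNA genes) and 94 in the nucleus. The nuclear ones are 76 subunit genes, cytochrome c among them, 8 assembly factors of complex I, 6 tissue-restricted isoforms, the supercomplex factor Cox7a2l and 3 further symbols with the Atp5 prefix.

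The samples were retinal ganglion cells, the output neurons of the eye, taken from mice at postnatal day 8 by immunopanning, which holds the wanted cells on plates coated with antibody. One group of 4 libraries came from NPC1-deficient mice, which lack a working copy of the lysosomal cholesterol exporter NPC1, and the other group of 4 from wildtype littermates. The strain is given as BALB/cNctr-Npc1m1N/J for all 8 libraries, with no transgene, drug or culture step, and the loss of NPC1 affects every cell of the animal. The comparison asks how the neurons' RNA differs with that loss. A second label field contradicts the titles, since there the libraries numbered 1 and 2 count as wildtype and those numbered 3 and 4 as homozygous, whatever their title says. Groups follow the titles and descriptions here, and libraries 1 and 2 against libraries 3 and 4 are called the library sets. Whether each library had its own animal is not stated, and p-values therefore reflect only how these libraries scatter, which may be technical.

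Electrons from NADH enter the respiratory chain at complex I and those from succinate at complex II. They pass through complex III and cytochrome c to complex IV, which reduces oxygen, while complexes I, III and IV pump protons across the inner mitochondrial membrane. Complex V, the ATP synthase, uses the proton gradient to make ATP. Complexes I, III, IV and V combine subunits of both genomes, whereas complex II is wholly nuclear. The mitochondrial genome is copied into long transcripts of both strands, from which tRNAs, rRNAs and mRNAs are cut. Retinal ganglion cells depend heavily on this pathway, and inherited defects of mitochondrial complex I genes are known for causing loss of these cells.

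Neighbouring messages of the mitochondrial genome can share bases, and reads over a shared stretch cannot be given to 1 gene alone. mt-Atp8 and mt-Atp6, subunits of complex V, share 43 bases, and mt-Nd4l and mt-Nd4, subunits of complex I, share 7. The ends and starts of these genes are shown because their counts are not independent. They come from the GENCODE M21 transcripts on GRCm38, which is the same build as mm10, at chrM:7897-7969, chrM:7927-7999, chrM:10137-10173 and chrM:10167-10203 on the plus strand. Capitals mark the shared coding bases.
mt-Atp8 end: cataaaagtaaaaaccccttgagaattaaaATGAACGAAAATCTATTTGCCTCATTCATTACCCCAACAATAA
mt-Atp6 start: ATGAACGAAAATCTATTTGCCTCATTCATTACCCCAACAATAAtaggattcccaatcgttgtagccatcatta
mt-Nd4l end: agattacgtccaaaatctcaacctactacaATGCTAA
mt-Nd4 start: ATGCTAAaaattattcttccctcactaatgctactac

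The whole of mt-Nd4l (chrM:9877-10173, plus strand) is shown as well, because its values below lie near the limit that a count of 0 allows. Capitals mark the 294 bases that are identical in Gm10222, a copy on chromosome 1.
mt-Nd4l: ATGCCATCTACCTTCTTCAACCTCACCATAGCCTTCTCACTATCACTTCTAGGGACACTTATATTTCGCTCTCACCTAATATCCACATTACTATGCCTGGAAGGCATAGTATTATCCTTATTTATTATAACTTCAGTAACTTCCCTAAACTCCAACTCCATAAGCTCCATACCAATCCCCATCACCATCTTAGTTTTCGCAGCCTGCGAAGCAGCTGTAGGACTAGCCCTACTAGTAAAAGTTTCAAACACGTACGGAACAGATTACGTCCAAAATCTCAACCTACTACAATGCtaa

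The mRNA gene and the tRNA gene with the most negative fold changes below lie next to each other on the minus strand. The stretch from mt-Te, the tRNA for glutamate, into mt-Nd6, a membrane subunit of complex I, is chrM:14041-14139 on the minus strand, and capitals mark the first 30 bases of mt-Nd6.
mt-Te to mt-Nd6: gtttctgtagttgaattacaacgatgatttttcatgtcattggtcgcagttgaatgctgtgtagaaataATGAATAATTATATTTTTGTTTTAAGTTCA

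Library totals ran from 33030175 to 44050118 recovered reads, and values are given as normalized reads, which are reads divided by 1 size factor per library. Npc1, read first as a check of the labels, had normalized read counts of 66.1 to 140 in the libraries titled NPC1-deficient and of 707 to 857 in the wildtype ones. Its log2 difference between the groups was -3.25, at a limma adjusted p of 3.23e-05. Over 70 assignments the exact permutation test, two-sided, gave 0.0286, the smallest value this design allows. The ganglion cell markers Rbpms, Pou4f1 and Pou4f2 were at 20905 to 24180, 9608 to 11891 and 11048 to 12762 normalized reads across the 8 libraries. Genes with a mean of at least 10 normalized reads were tested, 124 of the 131 members among them. Limma called 16 of 15386 tested genes (0.104%) at an adjusted p under 0.05, and the median log2 fold change of all tested genes was 0.0050. Of all tested genes, 52.0% had a positive fold change. All fold changes below are on the scale log2(normalized reads + 1), NPC1-deficient over wildtype.

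None of the genes of oxidative phosphorylation passed the test. Limma called 0 of the 124 tested members, with a lowest adjusted p of 0.201, and edgeR called 0. At an unadjusted p under 0.05 there were 4 members, 3.23% of those tested, against 6.76% of all tested genes. These were mt-Nd5, mt-Nd6, mt-Te and Cox7a1. By genome they were 3 of 33 tested mitochondrial genes (9.09%) and 1 of 91 nuclear ones (1.10%). Among the mt- mRNA genes they were 2 of 12 (16.7%). No member had groups that did not overlap, against 4.27% of all tested genes. DESeq2, run on the recovered reads, called 3 members, mt-Nd5, mt-Nd6 and mt-Te, where it called 1.6% of all genes. Over all members these shares were near the background or below it, which is not a result about the members. The higher shares among mitochondrial genes rest on 3 genes that overlap or adjoin each other. What follows describes the values.

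Messages of the mitochondrial genome had mostly lower means in NPC1-deficient cells, with groups that overlapped in every gene. Of the 12 mt- mRNA genes tested, 11 had a negative fold change, and their median was -0.21 with a range from -0.35 to 0.0077. The unadjusted 95% intervals left out 0 in 2 of the 12, mt-Nd5 and mt-Nd6. The 91 tested nuclear members had a median of 0.027, with 69 positive and 22 negative. In the summed normalized reads of the 13 mt- mRNA genes, wildtype 1 to 4 were at 3900290, 4013640, 3378930 and 4872460. NPC1-deficient 1 to 4 were at 3481610, 3299810, 3824610 and 3554090. Wildtype 4 stood highest and wildtype 3 lay inside the NPC1-deficient range. The coefficient of variation (SD as a percentage of the mean) had a median of 16.6% over these genes in wildtype and 7.18% in NPC1-deficient libraries.

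Much of this median rested on single wildtype libraries. It was -0.098 without wildtype 4 and -0.32 without wildtype 3. Taken from libraries 1 and 2 alone it was -0.27, and from libraries 3 and 4 alone -0.13. Of the 12 genes, 11 had their highest value of all 8 libraries in wildtype 4, and 10 had the lowest of the wildtype values in wildtype 3. Scaling by quantiles gave a median of -0.094, and the other scalings gave -0.22 to -0.24. Quantile scaling gives every library the same set of values, which by itself narrows differences that the most abundant genes share.

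Markers of other retinal cells mostly had negative fold changes as well. Fold changes were negative for 14 of 14 microglia and macrophage markers (median -1.46), and their summed reads were 2716 to 4329 in NPC1-deficient libraries against 3719 to 15124 in wildtype. Limma called 0 of these 14, DESeq2 called 7, and 12 had an unadjusted p under 0.05. By library the microglial sum was 3719, 10191, 8771 and 15124 in wildtype 1 to 4, highest in wildtype 4 and lowest in wildtype 1. Rod markers had negative fold changes in 15 of 16 genes, a median of -1.02, and summed reads of 72583 to 76964 against 73589 to 83328. Limma called 0 of them and DESeq2 4, with 13 at an unadjusted p under 0.05. Their mean log2 level was 9.41 in wildtype 1 and 8.15 in wildtype 4, the highest and the lowest of the wildtype libraries. The median was -1.01 for amacrine markers (3 positive, 8 negative), -0.34 for bipolar (0 and 11) and -0.28 for Müller glia (3 and 7). It was 0.064 for ganglion cell markers (11 and 3). Cone markers had a median of -0.37 (1 positive, 4 negative), pericyte markers -0.064 (1 and 2) and endothelial markers -0.16 (0 and 6). Among cone, pericyte and endothelial markers limma called 0 and DESeq2 called 1, the endothelial Kdr. Limma and edgeR each called 1 of 10 Müller glia markers, Apoe, and DESeq2 called it and Slc1a3. Limma called 0 of 11 amacrine markers, of which 6 had an unadjusted p under 0.05 and DESeq2 called 4 (Chat, Gad1, Slc32a1 and Tfap2b). Of 11 bipolar markers limma and DESeq2 called 0, with 3 at an unadjusted p under 0.05. None of the microglial and rod markers was at 0 in every library, and their part in the mitochondrial values was not tested. In bulk samples, fewer cells of a type and less RNA per cell cannot be told apart.

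**Figure D1:**
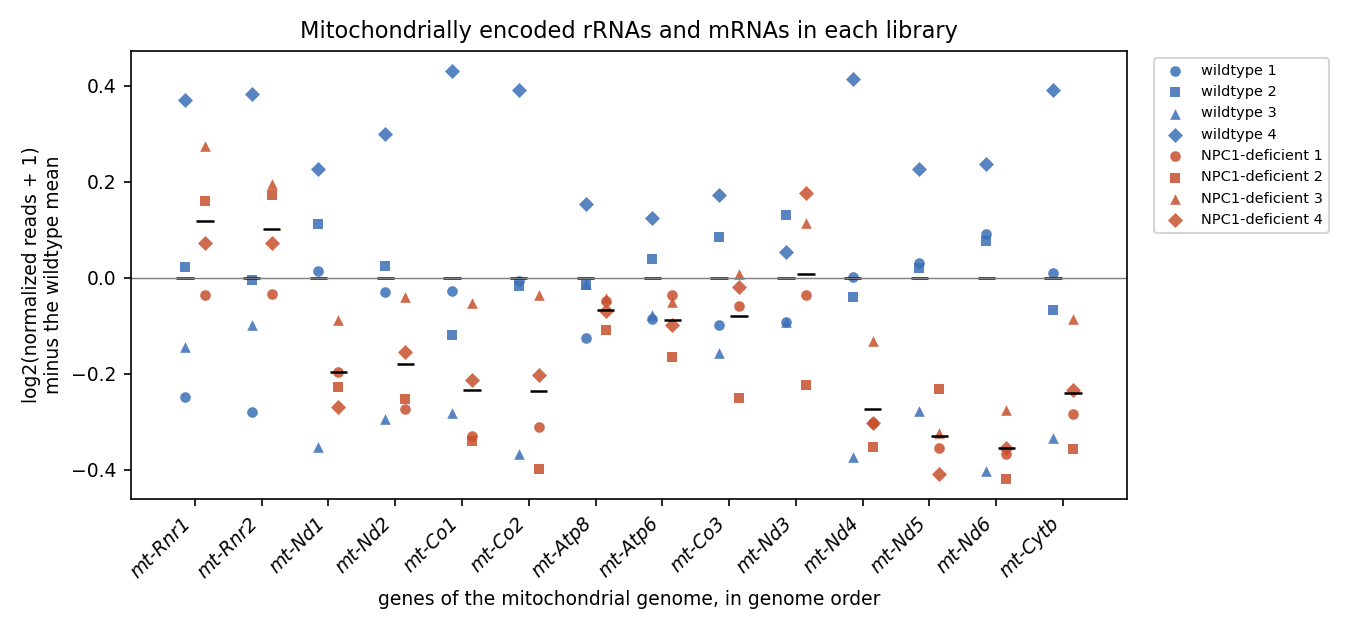
Mitochondrial rRNA and mRNA genes in genome order (x axis) against log2(normalized reads + 1) minus the wildtype mean (y axis), with 1 point per library and a bar at each group mean. Wildtype 4 is the highest point for 11 of the 12 mRNA genes, and the NPC1-deficient points of mt-Nd5 and mt-Nd6 lie within narrow ranges near the wildtype 3 value.

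Complex I holds 7 mitochondrially encoded subunits, which form the proton-pumping membrane arm. For mt-Nd5 (ENSMUSG00000064367, chromosome M, 11742 to 13565, plus strand), wildtype 1 to 4 had 174748, 173533, 141171 and 200317 normalized reads, and NPC1-deficient 1 to 4 had 133785, 145672, 136779 and 128946. Only wildtype 3 fell inside the NPC1-deficient range, and the other wildtype libraries lay above it. This gave a fold change of -0.33 (SE 0.09, limma adjusted p = 0.201), while DESeq2 gave an adjusted p of 0.0200. The fold change was -0.32 in libraries 1 and 2 and -0.34 in libraries 3 and 4.

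mt-Nd6 (ENSMUSG00000064368, chromosome M, 13552 to 14070, minus strand) is the one complex I message read from the other strand. NPC1-deficient 1 to 4 held 57205, 55162, 60914 and 57655 normalized reads of it, against 78585, 77748, 55772 and 86939 in the wildtype libraries. Again wildtype 3 lay among the NPC1-deficient values and the other 3 wildtype libraries lay above all of them. A fold change of -0.35 (SE 0.11, limma adjusted p = 0.300) resulted, with a DESeq2 adjusted p of 0.0425. Without wildtype 3 it was -0.49 (limma adjusted p = 0.0343), and within libraries 1 and 2 alone it was -0.48 (limma adjusted p = 0.00959). In libraries 3 and 4 alone it was -0.23, and without wildtype 4 it was -0.28. The kit does not mark strand, so reads of mt-Nd6 and reads of the opposite transcript over it cannot be told apart. From position 13552 mt-Nd6 also overlaps the end of mt-Nd5, so the counts of both genes need not be independent.

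Of the remaining complex I messages, mt-Nd4 had a fold change of -0.27 (SE 0.13), mt-Nd1 of -0.20 (SE 0.10) and mt-Nd2 of -0.18 (SE 0.10), the lowest limma adjusted p of the 3 being 0.755 (mt-Nd4). For mt-Nd4, wildtype libraries ranged from 254725 to 439663 normalized reads and enclosed all 4 NPC1-deficient values, 258460 to 301284. mt-Nd3 had the only positive value, 0.0077 (SE 0.09), from 69019 ± 5358 (SD, n = 4) to 69626 ± 8384 (SD, n = 4) normalized reads. Its fold change was -0.15 in libraries 1 and 2 and 0.17 in libraries 3 and 4. The difference between the library sets had an unadjusted p of 0.0282 and a limma adjusted p of 0.311. Limma called that difference in 0 of 124 members, against 0.078% of all tested genes, and 6 members had an unadjusted p under 0.05 for it, where 13.4% of all tested genes did.

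mt-Nd4l was close to absent from the table. It held 2.07 to 9.08 normalized reads in the 8 libraries, 15.3 per kilobase, where mt-Nd4, which follows it and shares 7 bases with it, held 221430 per kilobase. A value of 3 reads, the limit that a count of 0 allows, is 2.69 to 3.42 normalized reads, so no fold is given. GENCODE M21 lists 7 copies of mitochondrial genes on chromosome 1 between 24611535 and 24616197 on the minus strand, of which 5 were identical to the mitochondrial gene over their aligned length. They copy parts of mt-Co1, mt-Co2, mt-Atp6, mt-Co3, mt-Nd3, mt-Nd4l and mt-Nd4. Only Gm10222, the copy of mt-Nd4l, has a row in the table, at 2.07 to 20.7 normalized reads. How reads that match several places were counted is not given in the sources used here, and its part in the mt-Nd4l value was not tested. The levels of the other copied genes are uncertain for the same reason, though none of them was near 0. mt-Co2, mt-Atp6 and mt-Co3, whose copies were also identical, held 427011, 830150 and 846246 normalized reads per kilobase.

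The messages of complexes III and IV had wide ranges in wildtype. mt-Cytb, the cytochrome b of complex III, was at 419341, 397233, 330269 and 545494 normalized reads in wildtype 1 to 4 and at 341629, 325059, 392133 and 353914 in NPC1-deficient 1 to 4, with a fold change of -0.24 (SE 0.12, limma adjusted p = 0.808). Wildtype 4 stood above the rest and wildtype 3 below most of them. mt-Co1 and mt-Co2, the copper- and haem-carrying core of complex IV, had fold changes of -0.23 (SE 0.13) and -0.24 (SE 0.13). mt-Co3, the remaining core subunit, was at -0.080 (SE 0.09), from 682447 ± 73086 (SD, n = 4) to 644466 ± 50274 (SD, n = 4) normalized reads. All 3 had a limma adjusted p of at least 0.862.

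The complex V messages mt-Atp6 and mt-Atp8, which share the 43 bases shown above, had fold changes of -0.088 (SE 0.07) and -0.068 (SE 0.06). In mt-Atp6 the values were 518919 to 567236 normalized reads in NPC1-deficient and 548143 to 634573 in wildtype libraries. mt-Atp8 was at 128695 to 134827 and at 127303 to 154421. The groups overlapped in both genes.

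The messages mt-Nd5 and mt-Nd6, from the far end of the genome, had lower fold changes than mt-Atp6 and mt-Co3 from its middle, and the 2 pairs were set against each other within each library. The sum of mt-Nd5 and mt-Nd6 was 21.4%, 19.1%, 17.0% and 20.5% of the sum of mt-Atp6 and mt-Co3 in wildtype 1 to 4. In NPC1-deficient 1 to 4 it was 15.7%, 18.4%, 15.9% and 15.4%. NPC1-deficient 2 lay above wildtype 3, and 3 of the 4 NPC1-deficient libraries lay below all wildtype libraries. These genes were picked after their values were seen, so the percentages are a description with no test.

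Both rRNAs of the mitochondrial ribosome had positive fold changes, which varied with the libraries used. mt-Rnr1, the small rRNA, was at 24485, 28050, 30349 and 26375 normalized reads in NPC1-deficient 1 to 4, against 21118, 25491, 22714 and 32426 in the wildtype libraries, a fold change of 0.12 (SE 0.11, limma adjusted p = 0.983). mt-Rnr2, the large rRNA, had a fold change of 0.10 (SE 0.11, limma adjusted p = 0.995). The groups overlapped in both genes. For mt-Rnr1 the fold change was 0.035 without wildtype 1 and 0.24 without wildtype 4, and for mt-Rnr2 it was 0.0080 and 0.23. Libraries 1 and 2 alone gave 0.18 for mt-Rnr1 and 0.21 for mt-Rnr2, and libraries 3 and 4 alone gave 0.060 and -0.0085. Set against the mRNAs of the same library, the rRNA sum was 2.89%, 3.51%, 3.13% and 3.05% of the mt- mRNA sum in NPC1-deficient 1 to 4, against 2.19%, 2.57%, 2.83% and 2.75% in the wildtype libraries. The ranges did not overlap, although NPC1-deficient 1 lay just above wildtype 3. This ratio was chosen with the values known and has no test. The rRNA values also depend on the step that selects RNA, which is not stated beyond the kit's name.

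The 22 tRNA genes varied most. Of 19 tested, 8 lay above 0 and 11 below it (median -0.042). mt-Te (chromosome M, 14071 to 14139, minus strand) was at 1456, 1290, 1380 and 1303 normalized reads in NPC1-deficient 1 to 4, against 1767, 1891, 1349 and 2019 in the wildtype libraries. Wildtype 3 lay inside the NPC1-deficient range and the other wildtype libraries above it, as for its neighbours mt-Nd6 and mt-Nd5. Its fold change was -0.36 (SE 0.11, limma adjusted p = 0.276), with a DESeq2 adjusted p of 0.0489. mt-Te was singled out after its values were seen. At the positive end, mt-Tw, the tRNA for tryptophan, had 0.34 (SE 0.23, limma adjusted p = 0.928). mt-Tf, mt-Th and mt-Ts2 were too low to test, at 0 to 14.5 normalized reads.

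Nuclear subunit genes had fold changes close to 0. Over the 76 subunit genes the median was 0.024, with 57 positive and 19 negative. These signs are not independent, since 59 of the 76 genes had their lowest value of all 8 libraries in NPC1-deficient 2. The median was -0.00048 with quantile scaling and -0.0025 with scaling to the sum of all genes outside the mitochondrial genome. It was -0.030 in libraries 1 and 2 alone and 0.065 in libraries 3 and 4 alone, so its sign depends on the scaling and on the library set. The medians of complexes I, III, IV and V also changed sign between the library sets, and that of complex II did not. None of the 76 passed, and none had an unadjusted p under 0.05. The unadjusted 95% intervals of the 76 fold changes reached down to -0.20 and up to 0.27. In 75 of them the fold change was within 0.1 of 0, and the remaining one was Atp5k, the e subunit of the ATP synthase, at 0.10 (SE 0.08).

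**Figure D2:**
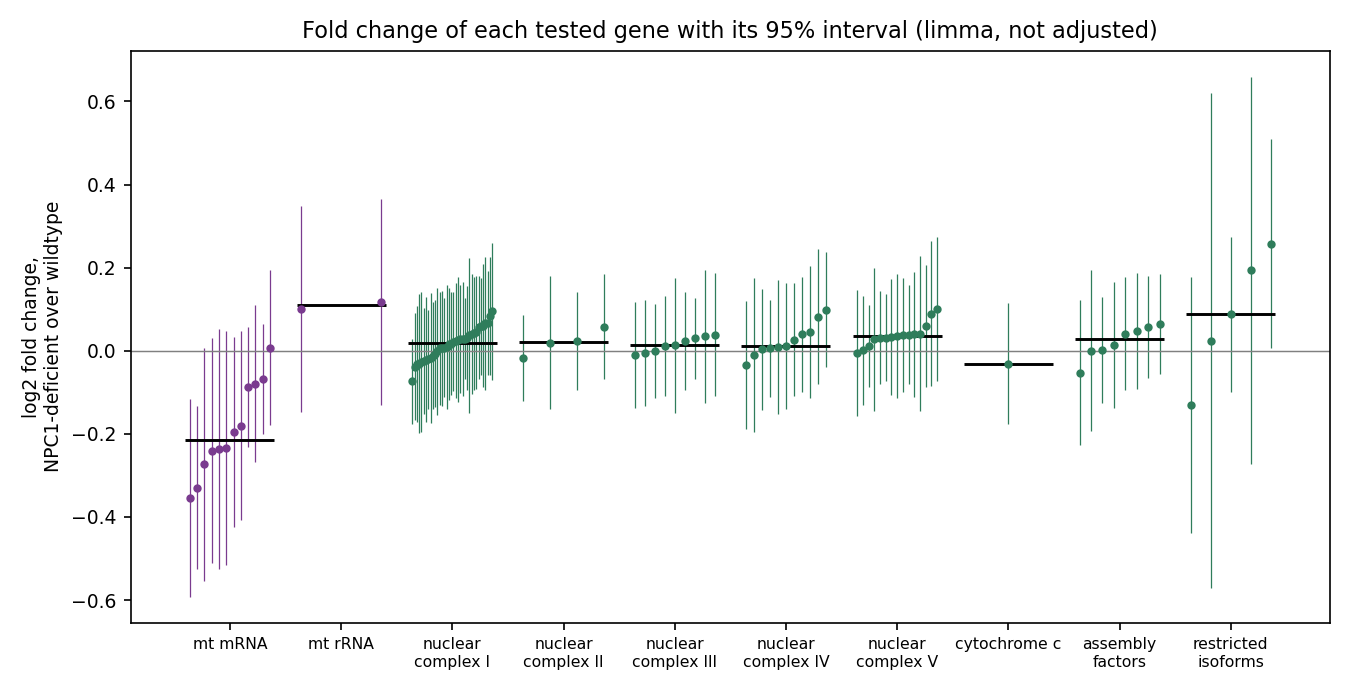
Log2 fold change of each tested gene (points, NPC1-deficient over wildtype) with its unadjusted 95% limma interval, by class on the x axis, and a black bar at each class median. The mt- mRNA points lie at -0.35 to 0.0077, while the nuclear subunit points of complexes I to V lie between -0.074 and 0.10.

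In complex I, the 36 nuclear subunits had a median fold change of 0.019, 24 positive and 12 negative. Among the 7 core subunits that carry the electrons, the median was -0.0068. Ndufs1, the largest iron-sulfur subunit, had the most negative value of the nuclear subunits, -0.074 (SE 0.05, limma adjusted p = 0.908). It was at 4815, 5141, 4942 and 4802 normalized reads in wildtype 1 to 4 and at 4752, 4840, 4620 and 4504 in NPC1-deficient 1 to 4. NPC1-deficient 2 lay above 2 of the wildtype libraries and the groups overlapped. Ndufv1, which binds NADH and the flavin, was at -0.020 (SE 0.05). Ndufs7, which carries the last iron-sulfur cluster before the quinone, was at 0.059 (SE 0.05).

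The 29 accessory subunits of complex I had a median of 0.024. Their range ran from -0.038 in Ndufa6 to 0.095 in Ndufa3, whose normalized reads went from 4461 ± 353 (SD, n = 4) to 4772 ± 455 (SD, n = 4). The nuclear complex I gene with the highest level per kilobase was Ndufa1, an X-linked membrane subunit, with a fold change of 0.037 (SE 0.09). The 8 assembly factors, which build the complex and are not part of it, had a median of 0.027. Ndufaf1, a factor of the membrane arm, was at -0.053 (SE 0.08), and Ndufaf7, a methyltransferase, was at 0.064 (SE 0.06).

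Complex II, which oxidises succinate, had a median of 0.022 over its 4 subunits. Sdha, the flavin subunit, was at 8475 ± 175 (SD, n = 4) in wildtype and 8379 ± 405 (SD, n = 4) normalized reads in NPC1-deficient libraries, a fold change of -0.017 (SE 0.05). Sdhb, the iron-sulfur subunit, was at 0.024 (SE 0.05), and Sdhd, a membrane anchor, at 0.058 (SE 0.06). In complex III the median over 9 nuclear subunits was 0.013. The Rieske iron-sulfur protein Uqcrfs1 was at -0.011 (SE 0.06), cytochrome c1 (Cyc1) at 0.00018 (SE 0.05), and the small subunits Uqcr10 and Uqcr11 at 0.038 (SE 0.07) and 0.023 (SE 0.05). Cycs, the cytochrome c that carries electrons to complex IV, was at 5570 ± 384 (SD, n = 4) and 5456 ± 426 (SD, n = 4) normalized reads, a fold change of -0.031 (SE 0.07).

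In complex IV, 11 widely expressed nuclear subunits had a median of 0.012. Cox6b1, on the side facing the intermembrane space, had the most positive value at 0.098 (SE 0.06, limma adjusted p = 0.915). Its wildtype libraries held 14113, 15315, 14602 and 15998 normalized reads and its NPC1-deficient libraries 15945, 14330, 17051 and 17019, so that NPC1-deficient 3 and 4 stood above every wildtype library and NPC1-deficient 2 below 3 of them. Cox5a, at the other end, was at -0.034 (SE 0.07). Complex V had a median of 0.036 over 15 subunits, 14 of them positive. Atp5a1 and Atp5b, which form the catalytic head, were at 0.011 (SE 0.05) and 0.031 (SE 0.05), with 61541 ± 1516 and 79876 ± 3162 normalized reads in wildtype (SD, n = 4). Atp5h, a stalk subunit, was the negative one at -0.0047 (SE 0.07).

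Many nuclear members were lowest in the same library. NPC1-deficient 2 held the lowest of all 8 values for 66 of the 91 tested nuclear members and the lowest of its group for 83. The share of all tested genes lowest in that library was not counted, so this is not shown to be particular to the members. Over the whole table its chi-square per degree of freedom, which grows as the reads of 2 libraries differ, was 43.9 to 50.3 against its group. Between the other NPC1-deficient libraries it was 4.27 to 21.6. The summed normalized reads of the 94 nuclear members were 780890, 699437, 797243 and 791971 in NPC1-deficient 1 to 4, against 722579, 767391, 732094 and 795329 in the wildtype libraries. NPC1-deficient 2 stood apart from its group, below every wildtype library. Without it the median over nuclear subunits was 0.072, and over all leave-one-out fits that median ran from 0.00080 (without wildtype 1) to 0.072. In that library Lars2, the mitochondrial leucyl-tRNA synthetase and no member here, was at 150393 normalized reads against 7172 to 16596 in the other 7. Any link between these values was not tested.

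Promoters of the nuclear members were read for motifs. Any link between a motif and the levels of these genes was not tested. RefSeq windows on GRCm38.p6, from 250 bases before to 50 after a start, were found for 76 of the 94 genes, giving 82 windows. The NRF1 motif GCATGCGC (GCGCATGC on the other strand), bound by a regulator of respiratory genes, was in 13 of 82 windows (15.9%) against 2.71% of all 32851 windows. These letters can overlap on both strands, as they do in both windows shown here. The ETS motif CCGGAAGT, read on both strands, was in 6.10% against 3.89%. The TATA motif TATAAA, also on both strands, was in 8.54% against 13.6%. The member windows had a median GC content of 58.5% against 52.7%, and a median of 20 CpG sites against 7, so base composition differed as well. The promoters of Uqcrc1 (chr9:108936398-108936697, plus strand), a matrix-facing subunit of complex III, and Cox6a1 (chr5:115348909-115349208, minus strand), a complex IV subunit, are shown as 2 windows that hold the NRF1 motif, in capitals. A match is a description and not a binding site.
Uqcrc1 promoter: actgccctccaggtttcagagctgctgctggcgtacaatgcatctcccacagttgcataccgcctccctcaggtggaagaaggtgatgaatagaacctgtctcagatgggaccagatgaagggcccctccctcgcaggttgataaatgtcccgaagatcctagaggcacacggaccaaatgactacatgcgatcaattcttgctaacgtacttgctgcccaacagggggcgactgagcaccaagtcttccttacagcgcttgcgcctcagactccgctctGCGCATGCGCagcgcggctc
Cox6a1 promoter: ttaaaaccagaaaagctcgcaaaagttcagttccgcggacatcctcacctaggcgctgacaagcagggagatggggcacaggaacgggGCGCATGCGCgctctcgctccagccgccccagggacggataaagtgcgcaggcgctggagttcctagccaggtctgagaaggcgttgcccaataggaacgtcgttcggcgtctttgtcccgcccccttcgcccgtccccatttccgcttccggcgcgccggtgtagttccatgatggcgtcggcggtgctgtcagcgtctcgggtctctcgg

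Uqcrc1 was at 13745 ± 369 (SD, n = 4) and 14032 ± 503 (SD, n = 4) normalized reads, a fold change of 0.029 (SE 0.05). Cox6a1 was at 16228, 14623, 16416 and 16167 in NPC1-deficient 1 to 4, against 15473, 15441, 15316 and 16931 in the wildtype libraries, a fold change of 0.0059 (SE 0.05). It was high in wildtype 4 and low in NPC1-deficient 2, and the groups overlapped.

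The mt- mRNA sum was also divided by the nuclear sum of the same library. This ratio was 4.46, 4.72, 4.80 and 4.49 in NPC1-deficient 1 to 4, against 5.40, 5.23, 4.62 and 6.13 in the wildtype libraries. Wildtype 3 lay inside the NPC1-deficient range, and the other wildtype libraries lay above it. The mean of the log2 ratio differed by -0.20, within a range of -0.27 (without wildtype 3) to -0.14 (without wildtype 4). It was -0.21 in libraries 1 and 2 and -0.20 in libraries 3 and 4. As a ratio within a library it does not depend on the size factors. It was not tested and the groups overlapped, and a ratio cannot tell which of its 2 sums would differ.

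**Figure D3:**
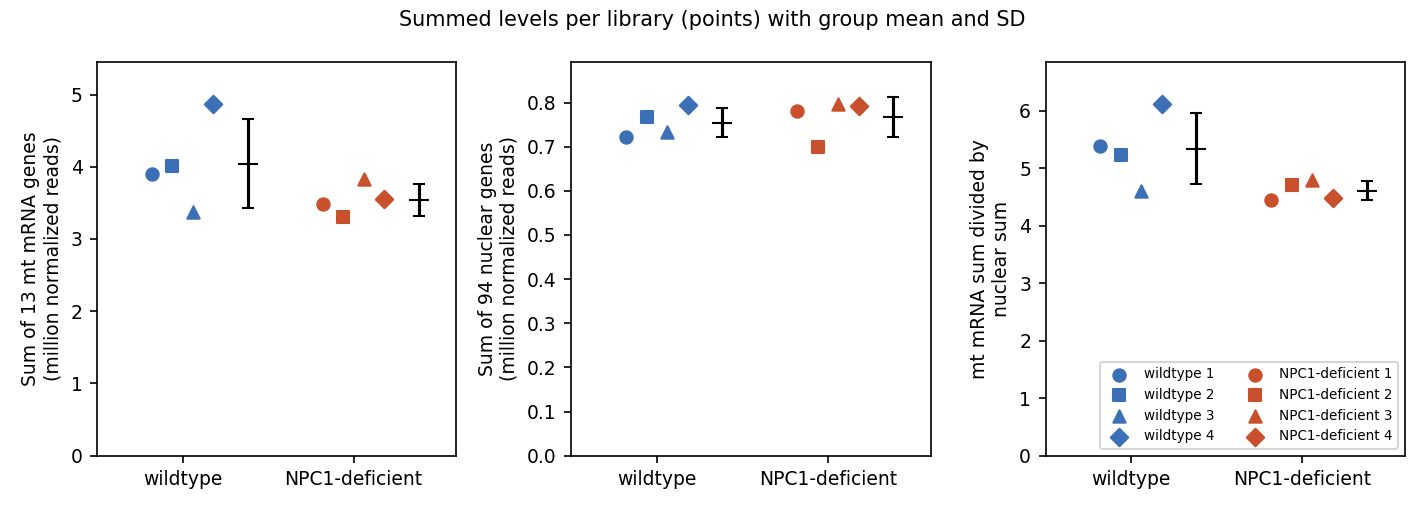
Sum of the 13 mt- mRNA genes, sum of the 94 nuclear members (both in normalized reads) and their ratio in each library (points), with the group mean and SD (black, n = 4), for wildtype and NPC1-deficient on the x axis. Wildtype 4 has the highest ratio, 6.13, and wildtype 3, at 4.62, is the only wildtype library inside the NPC1-deficient range of 4.46 to 4.80.

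Levels per kilobase of exon are given here as normalized reads per kilobase averaged over the 8 libraries. The length is that of all annotated exons of a gene together, such as 619 bases in Cox8a and 4237 in Atp5b. The order of the members therefore depends on the annotation as well as on the reads. The mt- mRNA genes other than mt-Nd4l ran from 84632 in mt-Nd5 to 846246 in mt-Co3, with mt-Atp6 at 830150. mt-Co3 and mt-Atp6 did not differ beyond their spread, with wildtype means of 870468 ± 93222 and 855985 ± 60435 (SD, n = 4). The highest nuclear subunit, Cox8a of complex IV, was at 26018, below every mt- mRNA gene but mt-Nd4l. Among the nuclear subunits of the other complexes, Ndufa1 was highest in complex I at 21145, Atp5a1 in complex V at 19709, Uqcr11 in complex III at 9724 and Sdhd in complex II at 7222. The assembly factors were at 291 to 1246. Library preparation by poly(A) or by depletion is not stated beyond the kit's name, and levels of tRNA and rRNA genes depend on it.

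**Figure D4:**
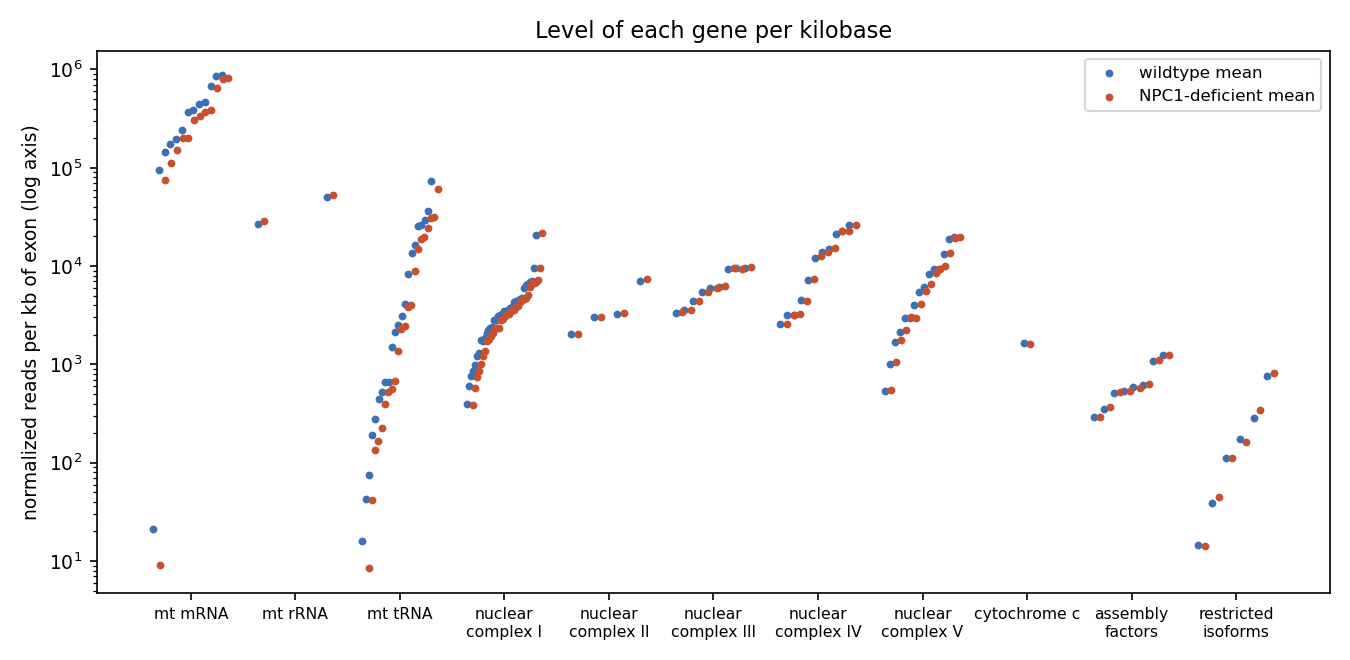
Normalized reads per kilobase of exon (y axis, log scale) of each gene, by class on the x axis, as the mean of 4 wildtype (blue) and 4 NPC1-deficient (orange) libraries. The mt- mRNA genes lie above the nuclear classes, apart from mt-Nd4l at 15.3.

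The tRNA genes differed by strand in level. The 8 on the minus strand held 2211 to 67562 normalized reads per kilobase, with mt-Ts1 highest. The 14 on the plus strand held 12.2 to 34151, and of these mt-Tl1, which lies between mt-Rnr2 and mt-Nd1, was the highest. Without strand in the data, minus-strand tRNA reads include any read of plus-strand precursors that cross them.

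Within families of alternative subunits, the shares per kilobase describe the RNA of each form in these bulk libraries. They depend on the annotated exon length of each gene, which was 4912 bases for Atp5g1, 1675 for Atp5g2 and 2181 for Atp5g3. Which cells held the minor forms was not tested. Cox4i1 made up 98.8% ± 0.149 (SD, n = 4) of Cox4i in wildtype and 98.9% ± 0.129 in NPC1-deficient libraries, the rest being Cox4i2, an oxygen-regulated form. The heart and muscle form Cox6a2 was at 0.171% ± 0.0189 and 0.198% ± 0.0369 of Cox6a. The testis form Cox6b2 reached 3.48% ± 0.178 and 3.47% ± 0.410 of Cox6b. Of the c-ring genes, which encode the same mature protein, Atp5g3 made up 82.9% ± 0.318 and 82.8% ± 0.222, Atp5g1 10.8% ± 0.499 and 10.8% ± 0.400, and Atp5g2 6.38% ± 0.385 and 6.40% ± 0.208. Ndufa4l2 was at 0.75% ± 0.302 and 0.723% ± 0.196 beside Ndufa4. Each of these shares differed between the groups by less than the larger of its 2 SDs.

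Cox7a1, the heart and muscle form of Cox7a, was the 1 nuclear member with an unadjusted p under 0.05. NPC1-deficient 1 to 4 had 201, 174, 181 and 173 normalized reads of it, against 145, 152, 136 and 179 in the wildtype libraries. Wildtype 4 lay inside the NPC1-deficient range and the other 3 wildtype libraries below it. Its fold change was 0.26 (SE 0.12, unadjusted p = 0.0456, limma adjusted p = 0.711). It made up 1.35% ± 0.0884 (SD, n = 4) of the Cox7a reads per kilobase in wildtype and 1.56% ± 0.171 in NPC1-deficient libraries, where Cox7a2 held 56.8% ± 1.006 and 57.5% ± 1.15. Cox7a2l, a factor that joins complexes III and IV into supercomplexes, held 41.9% ± 0.960 and 40.9% ± 1.15. Cox4i2 lay the other way at -0.13 (SE 0.14), and Cox6a2 was at 0.19 (SE 0.21) with 22.4 to 35.1 normalized reads. Cox7b2, a testis form, Atp5l2 and Atp5l-ps1 were too low to test, at 0 to 16.1 normalized reads.

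For genes that work beside the complexes, the medians of the lists lay near 0. The 9 lists hold assembly factors, mitochondrial DNA and transcription, mitochondrial translation, biogenesis regulators, the citric acid cycle, glycolysis, carriers, and import and cristae genes. Their medians ran from -0.020 to 0.019, the lowest being that of the biogenesis regulators, where 2 of 13 genes were positive and 11 negative. Of the 161 genes tested in them, limma, edgeR and DESeq2 each called 0, and 1 had an unadjusted p under 0.05, with 79 positive and 82 negative. That gene was Hk2, a hexokinase that binds mitochondria, at -0.26 (SE 0.10, limma adjusted p = 0.594), from 219 ± 14.8 (SD, n = 4) to 183 ± 14.6 (SD, n = 4) normalized reads. Slc2a1, a glucose transporter, was at -0.20 (SE 0.10). The fold change farthest from 0 was that of Lars2, 1.04 (SE 0.70, limma adjusted p = 0.927), whose value in NPC1-deficient 2 is given above. Fastkd5, which matures mitochondrial messages, was at -0.24 (SE 0.13), and Hsd17b10, a subunit of mitochondrial RNase P, at 0.14 (SE 0.07).

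Of the assembly lists, Coa6 and Cox20, copper and Cox2 factors of complex IV, were at 0.12 (SE 0.08) and 0.13 (SE 0.10). Nubpl, which delivers iron-sulfur clusters to complex I, was at -0.10 (SE 0.08) and Lyrm7, which does so for complex III, at -0.12 (SE 0.11). Yars2, the mitochondrial tyrosyl-tRNA synthetase, was at -0.12 (SE 0.06). The chaperones Hspa9 and Hspd1 were at -0.099 (SE 0.05) and -0.091 (SE 0.06). Gabpb1, a partner of an ETS factor that controls respiratory genes, was at -0.096 (SE 0.08), and Slc25a27, an uncoupling protein of neurons, at 0.11 (SE 0.05). The lowest limma adjusted p among these genes was 0.760.

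Some members share exon bases with other genes, and without strand their reads cannot be separated. In Ndufaf2 65.6% of the exonic length lies opposite another gene, in Ndufb6 39.0%, in Atp5o 35.6% and in Uqcrc2 19.7%. In Ndufb9 19.5% is shared with Gm49356 on the same strand.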

How the data were processed

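RNA of 8 libraries was prepared with a TruSeq RNA v2 kit, which is unstranded, per the labels' protocols. The submitters' processing notes name DESeq2 1.0.19, HTSeq 0.5.4p3, CASAVA 1.8.2 and build mm10 without roles, and an aligner or annotation release is not given in the sources used here. Each deposited value is a normalized signal, made by the authors as reads divided by a size factor per library, as the values show. All 199536 values came out as whole reads within 1e-06 of a read, and these recovered reads served the alternatives only. Depth was 33030175 to 44050118 reads per library, 9.04% to 12.7% of them from mitochondrial genes, and a count of 0 allows up to 3 reads. These limits cover counting error only.

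Genes with a mean of at least 10 normalized reads were tested on log2(value + 1), which understates folds of low genes, with limma 3.58.1 in R 4.3.3, no covariate, a trended prior variance and Benjamini-Hochberg adjustment over 15386 genes at 0.05. Of the 131 members 124 passed the filter. The members and lists were chosen with earlier results of these data known. Named members are every mt- protein and rRNA gene, for each nuclear complex the highest level per kilobase and the largest fold change in each direction, catalytic subunits and isoform families, and up to 2 genes per further list by smallest p. Some genes that this rule names are not reported here. Positions and exon lengths are from GENCODE M21, in which 98.1% of 24942 identifiers were found. Alternatives were pseudocounts of 0.5 and 5, no filter or a minimum of 50, quantile, upper-quartile and sum scaling, robust moderation, a replicate block, a library set term, each set alone, the contradicting label field as groups, edgeR 4.0.16 and DESeq2 1.42.0 on recovered reads, and leaving out libraries. The limma fit was tested on simulated data.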

Additional observations from a re-analysis of the deposited data

Results flagged for a closer look

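In 114 groups of 4 libraries checked for a library far from the other 3, 4 were found, where chance flags about 1 in 20 groups. Cox6a1, a complex IV subunit, was at 16931 normalized reads in wildtype 4 against 15316 to 15473 in the other wildtype libraries. The same gene was at 14623 in NPC1-deficient 2 against 16167 to 16416 in the others. Atp5g3, the main c-ring gene of complex V, was at 25647 in NPC1-deficient 2 against 30378 to 31113. The summed normalized reads of the 94 nuclear members were 699437 in NPC1-deficient 2 against 780890 to 797243.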

How the results depend on the processing

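No named gene reversed as a called result. Of 52 named genes, 40 changed sign in at least 1 of 26 alternatives while uncalled in both fits, among them mt-Atp6, mt-Co3 and mt-Nd3. The count of all genes called, 16, became 10 with a minimum of 50, 99 with a library set term, 57 in libraries 1 and 2, 307 in libraries 3 and 4, 246 with DESeq2, 271 with the groups of the contradicting field and 167 without both libraries numbered 1; leaving out 1 library gave 2 to 141. The count of members called, 0, became 1 (mt-Nd6) in libraries 1 and 2, 3 with DESeq2, 3 others (mt-Tc, mt-Tg and mt-Tr) with the contradicting field, and 0 to 1 with 1 library left out. The mt- mRNA median was 0.082 with the contradicting field, and -0.32 to -0.098 with 1 library left out. With the replicate number as a block 34 genes and 0 members were called, and the mt- mRNA median stayed -0.21. Libraries of the same number deviated with correlations of -0.017, -0.033, -0.023 and -0.066, and no library correlated best with its own number. With so few libraries this cannot show whether a number marks a shared litter or day. DESeq2 was the only tool that called mt-Nd5 (-0.34, adjusted p = 0.0200) and mt-Te (-0.37, adjusted p = 0.0489). The cause of these differences was not tested. The minimum mean of 10 normalized reads left 7 members untested.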
